A study of Homo sapiens with 9 samples.

Results

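The genes for the subunits of RNA polymerases I, II and III, with a small set of their factors, were followed in a human B-lymphocyte line called P493-6, an established line, in 3 groups labelled by their MYC level. Members were the genes whose current symbol starts with POLR1, POLR2 or POLR3, pseudogenes and antisense genes left out. The mitochondrial RNA polymerase POLRMT and the factors RRN3, UBTF, TAF1A, TAF1B, TAF1C, TAF1D, BRF1 and BRF2 were added by name. The rule used no measured value, though it was set with earlier results of these data known. It gave 39 of the 19775 genes measured, read by 89 probe sets. A probe set is the group of array probes that together read 1 transcript region. POLR2M and POLR2J3 were not analysed here. By use, 12 members belong to RNA polymerase I, 2 to polymerases I and III, 5 to all 3 polymerases, 8 to polymerase II and 11 to polymerase III, and POLRMT stands alone.

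The samples were 9 single-colour Affymetrix arrays of total RNA, and their labels give 4 as high Myc, 3 as low Myc and 2 as no Myc expression. All 9 came from the same line, so every group is that line under a different MYC label. The labels state no treatment, time, age of culture or batch, and do not say whether replicates came from separate cultures, so each p-value reflects no more than the spread among these arrays, and that spread may be technical. As background, the line carries a MYC gene that tetracycline turns off and an EBNA2 fusion that depends on estrogen. All groups share these 2 constructs, but the labels do not say whether they shared exposure to tetracycline or estrogen. The comparisons below follow those labels.

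RNA polymerase I makes the large ribosomal RNA precursor in the nucleolus, RNA polymerase II makes messenger RNA, and RNA polymerase III makes transfer RNA, the smallest ribosomal RNA and other short RNAs. Each enzyme is built on a pair of large catalytic subunits, on a small assembly dimer and on subunits that all of them use, and each is brought to its genes by its own factors. MYC, a transcription factor that pairs with MAX on DNA sites called E-boxes, is known to promote growth of B cells in part by raising ribosome and transfer RNA production.

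MYC itself was read to check the labels. MYC intensity was 12755, 11326, 15404 and 12186 on the high Myc arrays, 2126, 2526 and 1443 on the low Myc arrays, and 2803 and 416 on the no Myc arrays. Against its label, the library labelled no Myc replicate 1 read more MYC than any low Myc array. The members whose calls are lost without that array are named below. MYC was called higher in high Myc against no Myc (log2 difference 3.57 ± 0.60, adjusted p = 0.00252) and against low Myc (2.70 ± 0.53, adjusted p = 0.0321). In low Myc against no Myc it was not called (0.87 ± 0.64, adjusted p = 0.484), so a MYC difference between those groups of arrays was not detected. Median intensity was 75.3 to 80.3 per array. Of 6 B-lymphocyte markers 5 were measured, and their summed intensity was 7472 to 14322 on high Myc arrays, 8959 to 10073 on low Myc arrays and 20904 to 28141 on no Myc arrays. Summed markers of T and NK cells (5 of 5 measured) were 457 to 582, 501 to 585 and 504 to 552 in that order of groups, those of myeloid cells (4 of 5) 160.5 to 182, 161 to 189 and 167 to 171, those of erythroid cells (3 of 4) 327 to 414, 321 to 389 and 369 to 419, and those of fibroblasts and epithelium (5 of 5) 665 to 810, 647 to 713 and 714 to 715. No marker was at 0, since array intensities do not reach it. As a sign of RNA quality, the log2 excess of 3' over 5' signal for GAPDH was 0.01 to 0.24 on the high and low Myc arrays, and 0.25 and 0.42 on the no Myc arrays. For ACTB the no Myc arrays did not stand apart, at 0.0039 and -0.0113, with -0.0744 to 0.188 on the others. The part of these values in the results was not tested. In such bulk RNA, fewer cells of a type and less RNA per cell cannot be told apart.

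The promoters of 4 members are shown as examples, since E-boxes are the sites MYC is known to bind: 3 are of genes called higher in high Myc against no Myc, and POLR3GL was called lower. Sequences of the 250 bases before the annotated start were taken from RefSeq on GRCh38.p14, and 31 of the 39 members had one. POLR1G (chr19:45406394-45406643, plus strand) holds CACGTG, the E-box core that MYC and MAX bind, starting 12 bases before its start. POLR1C (chr6:43516839-43517088, plus strand) holds the variant E-box CACGCG starting 21 bases before its start, and POLR3E (chr16:22297159-22297408, plus strand) holds that variant on the opposite strand, read here as CGCGTG, at 138 and 63 bases before its start. POLR3GL (chr1:145964440-145964689, plus strand) holds neither in these letters. In the lines below, capitals mark the E-box or its variant, and lower case is all other sequence.
POLR1G: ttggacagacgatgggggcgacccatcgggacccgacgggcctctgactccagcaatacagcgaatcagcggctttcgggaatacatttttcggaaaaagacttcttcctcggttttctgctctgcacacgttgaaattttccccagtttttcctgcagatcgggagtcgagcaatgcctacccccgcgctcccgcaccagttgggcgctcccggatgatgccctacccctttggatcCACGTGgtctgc
POLR1C: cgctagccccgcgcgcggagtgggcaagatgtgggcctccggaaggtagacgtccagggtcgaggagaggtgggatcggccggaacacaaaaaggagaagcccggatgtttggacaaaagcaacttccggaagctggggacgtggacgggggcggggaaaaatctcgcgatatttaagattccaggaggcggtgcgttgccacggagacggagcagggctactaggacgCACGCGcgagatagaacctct
POLR3E: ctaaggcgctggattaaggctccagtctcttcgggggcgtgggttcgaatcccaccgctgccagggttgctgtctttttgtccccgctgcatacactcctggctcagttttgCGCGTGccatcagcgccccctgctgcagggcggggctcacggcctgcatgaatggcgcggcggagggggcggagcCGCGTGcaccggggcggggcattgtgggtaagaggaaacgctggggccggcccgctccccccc
POLR3GL: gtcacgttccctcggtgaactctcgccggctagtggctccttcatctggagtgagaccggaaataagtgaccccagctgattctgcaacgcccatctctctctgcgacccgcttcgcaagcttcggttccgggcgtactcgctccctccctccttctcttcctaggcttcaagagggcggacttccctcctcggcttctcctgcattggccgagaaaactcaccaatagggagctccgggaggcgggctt
Over the same window and both strands, CACGTG was found in 3 of the 31 members (9.68%), which were POLR1G, POLR3A and POLR3C, and in 7.73% of the 27305 genes with a promoter sequence. CACGCG was found in 10 of the 31 members (32.3%) and in 11.5% of those genes. These 10 were POLR1C, POLR1D, POLR2B, POLR2L, POLR3C, POLR3E, POLR3K, RRN3, TAF1C and UBTF. Of them, TAF1C and UBTF were not called in high Myc against no Myc. POLR1B, POLR1F and POLR2H, which were called higher, held neither motif, so the 4 promoters shown do not stand for all members. Where a gene has several starts, a match before any of them was counted, and in the members no match of one motif shared bases with a match of the other. A match is a description of the letters only. The 27305 genes include some that are not among the 19775 measured, and the difference between the shares was not tested.

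Compared with no Myc, most of these genes were higher in high Myc cells. In the limma fit, 28 of the 39 members were called higher (adjusted p under 0.05) and 2 lower, against 14.2% of all genes called higher and 9.0% lower. The median member differed by 0.86 on the log2 scale between high Myc and no Myc, and the median of all genes by -0.01. All 6 subunits of RNA polymerase I rose, with a median difference of 1.82. The median was 1.02 for the 5 subunits shared by all polymerases, 0.58 for the 8 polymerase II subunits and 0.80 for the 9 polymerase III subunits, and the differences between these medians were not tested. The fit called 25 members higher and 1 lower when the library labelled no Myc replicate 1 was left out, and 22 and 1 when no Myc replicate 2 was. Either step leaves a single no Myc array, which is then assumed to vary like the other groups. Fewer of all genes, too, were called higher and lower in either step.

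**Figure D1:**
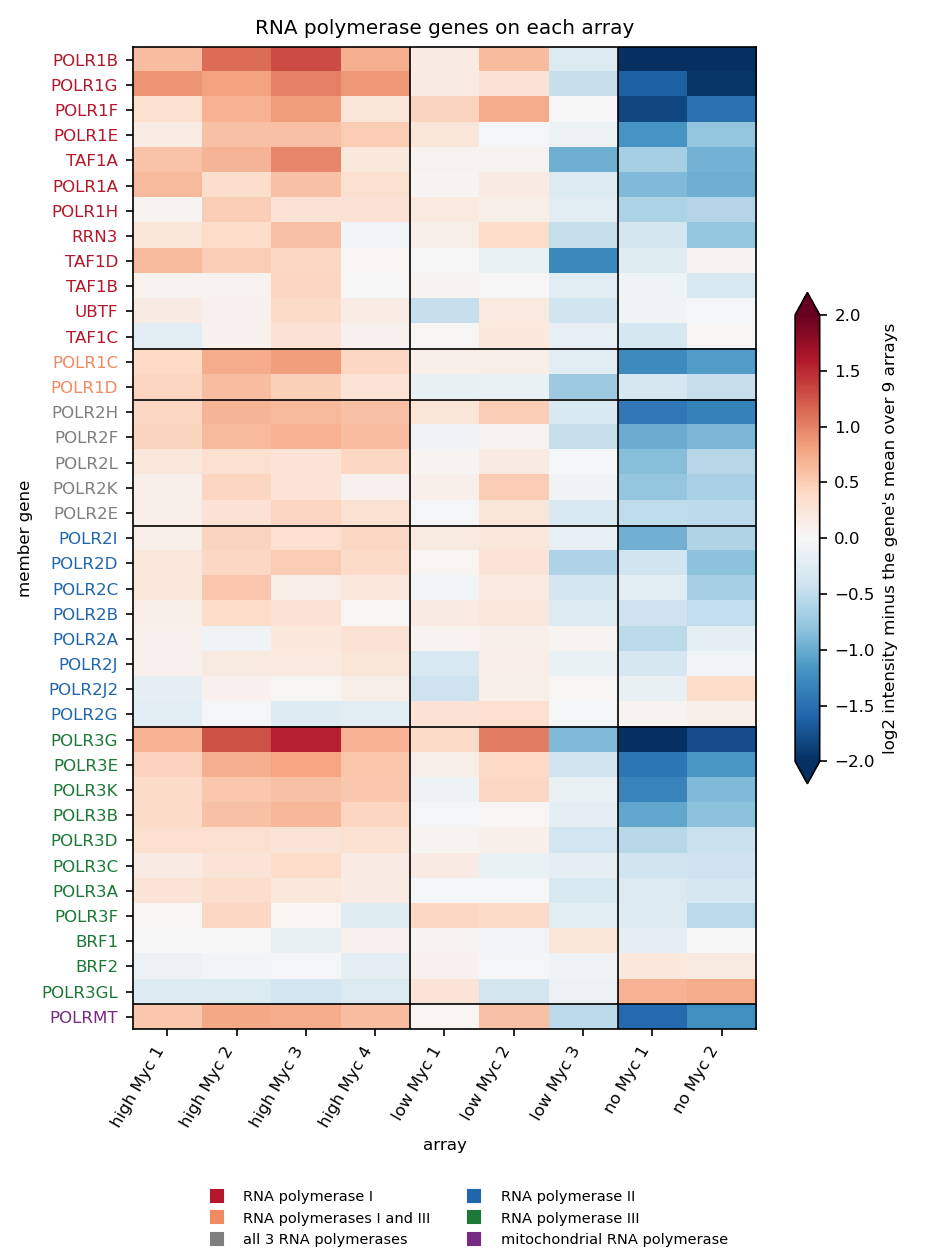
Heat map of log2 intensity minus the gene's own mean over the 9 arrays for the 39 members (rows, coloured by polymerase) on each array (columns). The median member stands at 0.22 to 0.42 on the high Myc arrays, between -0.23 and 0.17 on the low Myc arrays and at -0.54 and -0.58 on the no Myc arrays.

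Each array was also described by the median over the genes of an enzyme, every gene taken relative to its own mean over the 9 arrays. These medians include the added factors, with 12 genes for polymerase I, 8 for II and 11 for III. The medians by enzyme given earlier were of subunits alone. For RNA polymerase I this median was 0.29, 0.49, 0.59 and 0.23 (log2) on the high Myc arrays. It stood at 0.10, 0.18 and -0.28 on the low Myc arrays and at -0.64 and -0.79 on the no Myc arrays. The polymerase II median was 0.10, 0.27, 0.21 and 0.23 on the high Myc arrays, 0.05, 0.21 and -0.14 on the low Myc arrays, and -0.36 and -0.34 on the no Myc arrays. For polymerase III it was 0.26, 0.35, 0.25 and 0.17 on the high Myc arrays, 0.08, 0.03 and -0.20 on the low Myc arrays, and -0.40 and -0.45 on the no Myc arrays. For each enzyme both no Myc arrays were below every other array, and low Myc replicate 3 was below the other low Myc arrays. That array was the lowest of its group for 34 of the 39 members, whereas it was the lowest for 38.4% of all 19775 genes.

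POLR1A (Entrez gene 25885), the largest catalytic subunit of RNA polymerase I, had intensities of 499, 403, 479 and 397 on the high Myc arrays, 330.1, 357 and 262 on the low Myc arrays, and 172 and 162 on the no Myc arrays. The groups did not overlap. It rose by 1.41 ± 0.15 (log2 ± SE, 2.65-fold) in high Myc (8.79 ± 0.17, SD, n = 4) against no Myc (7.38 ± 0.06, n = 2; adjusted p = 0.000325). POLR1B (Entrez gene 84172), the other large subunit of its catalytic core, had 1068, 1508, 1708 and 1149 on the high Myc arrays, 775, 1078 and 568 on the low Myc arrays, and 149 and 167 on the no Myc arrays. The high and low Myc arrays of POLR1B overlapped and the no Myc arrays stood apart from both. Its difference between high Myc and no Myc was 3.08 ± 0.26, or 8.45-fold (adjusted p = 0.000145).

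POLR1E and POLR1G form the dimer that binds the core of RNA polymerase I and takes part in its initiation. POLR1E (Entrez gene 64425) read 547, 743, 739 and 703 on the high Myc arrays, 584, 486 and 461 on the low Myc arrays, and 217 and 284 on the no Myc arrays. Every no Myc value of POLR1E lay below all others. POLR1G (Entrez gene 10849) read 943, 886, 1024 and 925 on the high Myc arrays, 569, 621 and 369 on the low Myc arrays, and 163 and 132 on the no Myc arrays. The high, low and no Myc groups of POLR1G were separate. High Myc exceeded no Myc by 1.45 ± 0.17 for POLR1E (2.73-fold, adjusted p = 0.000449) and by 2.68 ± 0.20 for POLR1G (6.42-fold, adjusted p = 0.000101).

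POLR1F (Entrez gene 221830), a stalk subunit through which RRN3 recruits the enzyme, had 349, 453, 499 and 331 on the high Myc arrays, 381, 464 and 280 on the low Myc arrays, and 78.7 and 99.3 on the no Myc arrays. High and low Myc overlapped for POLR1F. It rose 4.54-fold in high Myc (adjusted p = 0.000326) and 4.15-fold in low Myc (adjusted p = 0.000924), each against no Myc, and the difference of high minus low Myc was 0.13 on the log2 scale (95% interval -0.34 to 0.60, adjusted p = 0.894). POLR1H, a small subunit known for RNA cleavage, rose by 0.88 ± 0.15 in high Myc against no Myc (adjusted p = 0.00242).

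Of the 6 factors that bring polymerase I to ribosomal DNA, 2 were called higher in high Myc against no Myc (median difference 0.42) and 0 in low Myc against no Myc. TAF1A (Entrez gene 9015), a part of the promoter selectivity factor SL1, had 182, 196, 241 and 143.5 on the high Myc arrays, 129.8, 129.8 and 62.6 on the low Myc arrays, and 77.9 and 63.5 on the no Myc arrays. The high Myc arrays lay above all other arrays, and the low and no Myc arrays overlapped. Its difference in high Myc against no Myc was 1.41 ± 0.31 (2.66-fold, adjusted p = 0.00935), and without no Myc replicate 2 the adjusted p was 0.0839. RRN3, which carries the enzyme to the promoter, rose by 0.86 ± 0.25 in the same comparison (adjusted p = 0.0356), a call made in 3 of 9 fits with an array left out. It was lost with any of high Myc replicates 1, 2 and 3, low Myc replicate 1 and either no Myc array left out (adjusted p of up to 0.248). RRN3 read between 504 and 789.7 on the high Myc arrays, between 378 and 678 on the low Myc arrays, and 306 and 406 on the no Myc arrays. The RRN3 probe set may also read near-identical pseudogene copies. The other SL1 parts and UBTF, which opens ribosomal genes, were not called. Their differences were 0.36 for TAF1B, 0.23 for TAF1C, 0.49 for TAF1D and 0.25 for UBTF.

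POLR1C and POLR1D form the assembly dimer shared by polymerases I and III. POLR1C (Entrez gene 9533) read 589, 746, 797 and 595 on the high Myc arrays, 477, 483 and 383 on the low Myc arrays, and 185 and 205 on the no Myc arrays. The groups were separate. High Myc exceeded no Myc by 1.80 ± 0.16 (3.48-fold, adjusted p = 0.000162). POLR1D (Entrez gene 51082) read 2317, 2622, 2381 and 2070.3 on the high Myc arrays, 1551, 1572 and 1042 on the low Myc arrays, and 1352 and 1251 on the no Myc arrays. Its high Myc arrays lay above the rest, and low and no Myc overlapped. POLR1D rose by 0.85 ± 0.18 (adjusted p = 0.00694), a call lost without no Myc replicate 2 (adjusted p = 0.061).

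The 5 subunits shared by all 3 polymerases all rose in high Myc against no Myc, against 4 of 5 in low Myc. POLR2H (Entrez gene 5437), one of these small core subunits, had 1496, 1791, 1763 and 1673 on the high Myc arrays, 1331, 1571 and 911 on the low Myc arrays, and 417 and 439.6 on the no Myc arrays. The no Myc arrays stood well below the others, which overlapped. Its difference in high Myc was 1.97 ± 0.19 (3.92-fold, adjusted p = 0.000236). POLR2F (Entrez gene 5435), which helps to hold the enzyme's core together, had 1010.0, 1160, 1203 and 1133 on the high Myc arrays, 699.7, 777 and 538 on the low Myc arrays, and 371 and 391 on the no Myc arrays. No group of POLR2F overlapped another. It rose by 1.56 ± 0.15 (2.95-fold, adjusted p = 0.000206). The other POLR2F probe set, with a mean log2 of 6.61, differed by -0.04 and was not called. POLR2L (Entrez gene 5441), a small zinc-binding subunit, had 4364, 4670, 4521 and 4954 on the high Myc arrays, 3895, 4202 and 3632 on the low Myc arrays, and 2076 and 2506 on the no Myc arrays. These groups also did not overlap, at 2.03-fold for high Myc against no Myc (adjusted p = 0.000352). POLR2E, near the incoming DNA, rose by 0.80 ± 0.15 and POLR2K, another zinc-binding subunit, by 0.93 ± 0.17 on the log2 scale (adjusted p = 0.00422 and 0.00352).

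Of the 8 RNA polymerase II subunits, 5 were called higher and 0 lower in high Myc against no Myc. POLR2A (Entrez gene 5430), its largest subunit, whose tail is phosphorylated during transcription, had 645, 579, 703 and 743 on the high Myc arrays, 634, 648 and 628 on the low Myc arrays, and 417 and 529.7 on the no Myc arrays. The no Myc arrays were lowest and the others overlapped. Its difference was 0.50 ± 0.13 (1.42-fold, adjusted p = 0.0224). The other probe sets of POLR2A are dim, with a mean log2 of 5.07 and 4.47. POLR2A lost its call under several alternatives, among them repeated quantile normalization (0.36, adjusted p = 0.201) and the median of its probe sets (0.03, adjusted p = 0.909), and without high Myc replicates 3 or 4 or no Myc replicate 1 (adjusted p of up to 0.239). POLR2I (Entrez gene 5438), a small subunit that aids accurate start and cleavage, had 1233, 1548, 1431 and 1513 on the high Myc arrays, 1277, 1321 and 1011 on the low Myc arrays, and 579 and 744 on the no Myc arrays. It was 2.17-fold higher in high Myc (adjusted p = 0.000984), with no Myc arrays apart from the rest.

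POLR2B, the other large catalytic subunit, differed by 0.65 ± 0.16 (adjusted p = 0.0155). POLR2C, part of the assembly platform, differed by 0.73 ± 0.19 (adjusted p = 0.0223), and POLR2D, of the stalk, by 0.99 ± 0.23 (adjusted p = 0.0127). No other probe set of these genes was called. For POLR2C these differed by 0.47 and 0.06 (mean log2 9.04 and 8.63) and for POLR2D by 0.79 (7.50). For POLR2B they differed by 0.66 (10.46) and, on a dim probe set, by 0.29 (4.69). The POLR2B call was lost without either no Myc array (adjusted p of up to 0.1), and those of POLR2C and POLR2D without no Myc replicate 2 (0.206 and 0.126). Leaving out no Myc replicate 1 left 3 polymerase II subunits called higher, and leaving out no Myc replicate 2 left 2. POLR2G, the stalk partner of POLR2D, had 1673, 1925.0, 1641 and 1684 on the high Myc arrays, 2412, 2474 and 1925.0 on the low Myc arrays, and 2042 and 2115 on the no Myc arrays. Every high Myc array was below both no Myc arrays, and the gene was not called. Its difference was -0.27 (95% interval -0.55 to 0.02, adjusted p = 0.194). POLR2J and POLR2J2, near-identical copies whose signals may be shared, differed by 0.37 and -0.09 and were not called.

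**Figure D2:**
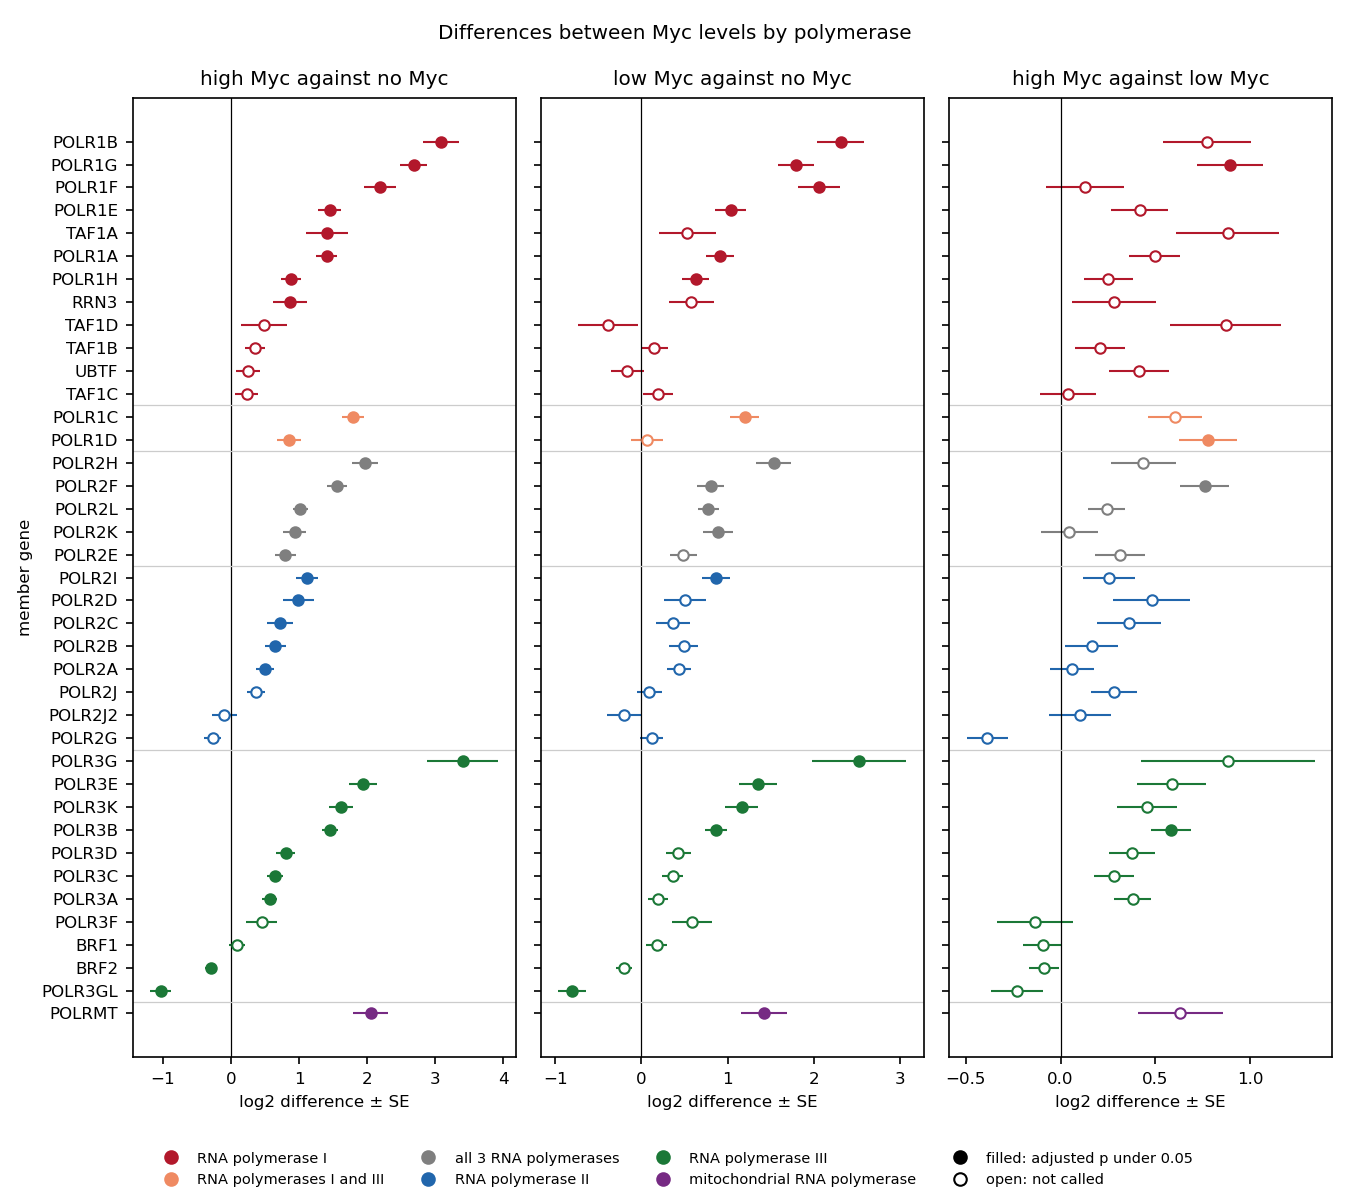
Log2 difference (± SE) for each of the 39 members, ordered and coloured by polymerase, in high Myc against no Myc, low Myc against no Myc and high Myc against low Myc. Filled points were called, and in high Myc against no Myc all but 2 of the 30 called members lie to the right of 0.

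Of the 11 RNA polymerase III genes, 7 rose and 2 fell in high Myc against no Myc. POLR3A (Entrez gene 11128), its largest catalytic subunit, had 367, 391, 359 and 343 on the high Myc arrays, 297, 302 and 246 on the low Myc arrays, and 249 and 242 on the no Myc arrays. The high Myc arrays lay above all others, while low and no Myc overlapped. It differed by 0.57 ± 0.11 (1.49-fold, adjusted p = 0.00481). POLR3B (Entrez gene 55703), the other large catalytic subunit, had 404, 461, 489 and 415 on the high Myc arrays, 303, 314 and 269 on the low Myc arrays, and 149 and 174 on the no Myc arrays. The 3 groups were separate. Its difference was 1.45 ± 0.12 (2.73-fold, adjusted p = 0.000137), and with the median of its 3 probe sets it was 0.14 (adjusted p = 0.782). The other probe sets of POLR3B are dim, with a mean log2 of 5.36 and 3.74.

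POLR3E (Entrez gene 55718), which with POLR3D forms the dimer that takes part in start and termination, had 989, 1178, 1243 and 1059 on the high Myc arrays, 782, 950.4 and 549 on the low Myc arrays, and 264 and 321 on the no Myc arrays. The groups did not overlap. It rose by 1.94 ± 0.21 (3.83-fold, adjusted p = 0.000313). Another POLR3E probe set (mean log2 7.52) differed by 2.13 and was called. The remaining ones (6.91 and 6.26) differed by 0.17 and 0.01 and were not called. POLR3K (Entrez gene 51728), a small subunit needed for RNA cleavage and termination, had 1716, 1916, 1969 and 1921 on the high Myc arrays, 1225, 1751 and 1196 on the low Myc arrays, and 524 and 715 on the no Myc arrays. Its high and low Myc arrays overlapped slightly, and the no Myc arrays were below both. The difference was 1.62 ± 0.18 (3.07-fold, adjusted p = 0.000369), and with the probe set that lacks a cross-hybridisation suffix, which is dim, it was 0.13 (adjusted p = 0.59). POLR3C, of the subcomplex that contacts the initiation factors, read between 279 and 321 on the high Myc arrays, between 221 and 281 on the low Myc arrays, and 188 and 189 on the no Myc arrays, and rose by 0.64 ± 0.12. POLR3D read between 332 and 353 on the high Myc arrays, between 214 and 300.0 on the low Myc arrays, and 190.5 and 204.5 on the no Myc arrays, and rose by 0.80 ± 0.14.

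POLR3G and POLR3GL are paralogs that take the same place in polymerase III, and POLR3G is known for proliferating and stem cells. POLR3G (Entrez gene 10622) had 238, 355, 431 and 238 on the high Myc arrays, 191, 299 and 79.5 on the low Myc arrays, and 19.3 and 43.1 on the no Myc arrays. POLR3GL (Entrez gene 84265) had 254, 255, 235 and 251 on the high Myc arrays, 369, 238 and 282 on the low Myc arrays, and 500.2 and 516 on the no Myc arrays. POLR3G was low, and POLR3GL high, on the no Myc arrays. The log2 ratio of the POLR3G to the POLR3GL signal, of which only the change between arrays can be read, was -0.09, 0.48, 0.88 and -0.08 on the high Myc arrays, -0.95, 0.33 and -1.83 on the low Myc arrays, and -4.70 and -3.58 on the no Myc arrays. The pair moved in opposite directions, with both no Myc arrays apart from all others for each gene. POLR3G rose by 3.40 ± 0.52 (10.6-fold, adjusted p = 0.0015) in high Myc, and POLR3GL fell by 1.03 ± 0.15, 2.04-fold lower (adjusted p = 0.00136). POLR3G averaged a log2 of 4.85 on the no Myc arrays, so that its fold is not exact, and with the median of its 3 probe sets the difference was 1.23 (adjusted p = 0.0967). The other probe sets of POLR3G are dim, with a mean log2 of 5.72 and 4.42.

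BRF2, a factor that recruits polymerase III to promoters upstream of the gene, fell by 0.29 ± 0.09 in high Myc against no Myc (adjusted p = 0.045), a call kept in 1 of 9 fits with an array left out, the one without low Myc replicate 3 (otherwise adjusted p of up to 0.209). It read between 324 and 359.9 on the high Myc arrays, between 351.1 and 389 on the low Myc arrays, and 418 and 425 on the no Myc arrays, so the no Myc arrays lay above all others. BRF1, its counterpart at promoters inside the gene, differed by 0.08 and POLR3F, of the subcomplex with POLR3C, by 0.45. Neither was called.

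POLRMT (Entrez gene 5442), the polymerase that transcribes mitochondrial DNA, had 486, 572, 559 and 512 on the high Myc arrays, 344, 501.5 and 234 on the low Myc arrays, and 114 and 143.5 on the no Myc arrays. High and low Myc overlapped. It rose by 2.05 ± 0.25 (4.15-fold, adjusted p = 0.000572). That call rests on 1 of its 3 probe sets, since the difference was 0.35 (adjusted p = 0.0803) with their median and -0.11 with the dim probe set that lacks a cross-hybridisation suffix.

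**Figure D3:**
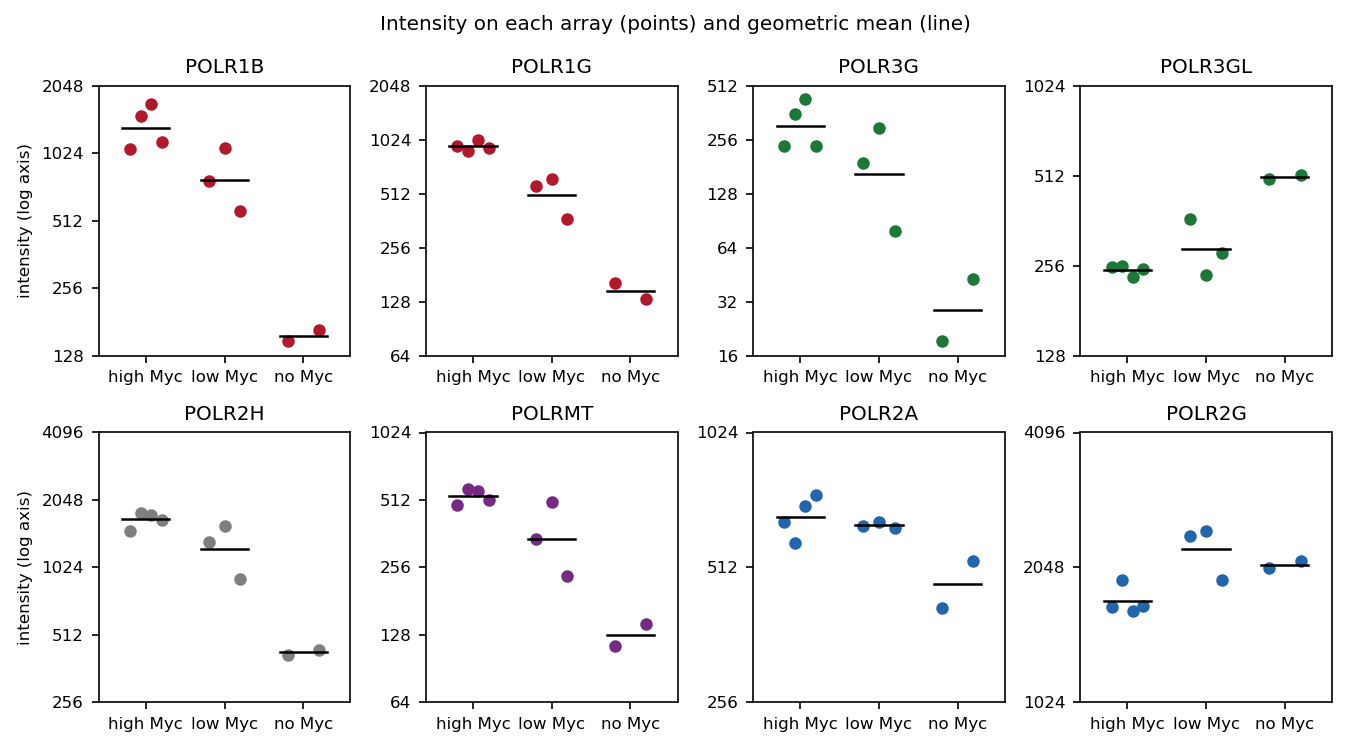
Intensity on each array (points, log axis) and geometric mean (line) by group, with high Myc on the left, low Myc in the middle and no Myc on the right, for 8 members. The no Myc arrays stand apart from the others in POLR1B, at 149 and 167, and in POLR3G, at 19.3 and 43.1.

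In low Myc against no Myc, 17 members were called higher and 1 lower, against 11.3% and 8.55% of all genes, with a median difference of 0.53 (0.00 for all genes). All 6 subunits of RNA polymerase I rose, as did POLR1C, 4 of the 5 shared subunits, POLR2I, 4 of 9 polymerase III subunits and POLRMT. POLR3GL was the gene called lower. The size of the difference was 4.95-fold for POLR1B, 3.45-fold for POLR1G, 2.90-fold for POLR2H, 2.55-fold for POLR3E and 2.24-fold for POLR3K. POLR3G differed by 2.52 ± 0.55 (adjusted p = 0.0113). In low Myc, 8 of the 9 added factors were not called, and POLRMT was called.

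These calls depended on the arrays. Without no Myc replicate 1, 11 members were called higher and 0 lower, and the calls of POLR2F, POLR2I, POLR2K, POLR3G and POLRMT were lost, with adjusted p values of 0.0629, 0.0727, 0.0727, 0.122 and 0.067. The POLR3GL call was lost when either no Myc array was left out (adjusted p of up to 0.0578), and POLR1H, at 0.63, was lost without any of 4 arrays, low Myc 1 and 2 and no Myc 1 and 2. Without low Myc replicate 3, 25 members were called higher and 1 lower. Over all genes that fit called 2840 higher and 1541 lower, in place of 2228 and 1691. Fewer of all genes, too, were called without no Myc replicate 1. With alternative probe set choices, the calls of POLR3E (1.12, adjusted p = 0.0695 on the probe set without suffix) and POLR3K (0.10) were lost. When probe sets were combined by their median, POLR3G (0.88, adjusted p = 0.309), POLRMT (0.21) and POLR3B (0.18) were not called. The medians of POLR3G and POLR3B include the dim probe sets described above.

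In high Myc against low Myc, 4 members were called higher and 0 lower, against 2.33% and 1.27% of all genes, and the median member was 0.36 higher. With repeated quantile normalization, the split over all genes would be 508 higher and 481 lower in place of 460 and 252. The called members were POLR1G (0.89 ± 0.17, adjusted p = 0.0309), POLR1D (0.78 ± 0.15, adjusted p = 0.0325), POLR2F (0.76 ± 0.13, adjusted p = 0.0195) and POLR3B (0.58 ± 0.11, adjusted p = 0.0246). With an array left out in turn, these calls held in 3, 3, 6 and 5 of 9 fits. POLR1G and POLR1D were lost with any of high Myc replicates 1, 3 and 4, low Myc replicate 1 and either no Myc array left out (adjusted p of up to 0.0977 and 0.0984). POLR2F and POLR3B were lost with any of high Myc replicates 3 and 4 and low Myc replicate 1 left out, and POLR3B also without low Myc replicate 3 (adjusted p of up to 0.0695 and 0.0788). The count of members called higher was 0 in those 3 fits, and 9 without low Myc replicate 2. Over all genes it was 176, 168 and 194 in those 3 fits and 604 without low Myc replicate 2, in place of 460. The other probe sets of these genes did not share the calls: of the 5 that POLR1D, POLR2F and POLR3B have besides the brightest, 0 were called. Of these 5, only 3 had a mean log2 of at least 6, and the POLR3B ones were dimmer than that. The other POLR1D probe sets differed by 0.06 and 0.14 in high Myc against low Myc, and by 0.41 and 0.54 in low Myc against no Myc, where the brightest differed by 0.07 (95% interval -0.35 to 0.49). With the median of probe sets, POLR2F differed by 0.37 (adjusted p = 0.0887) and POLR3B by -0.0393 (adjusted p = 0.982) in high Myc against low Myc.

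The genes around the polymerases were counted in lists of their known partners, which hold no member. Of the 15 genes of mitochondrial transcription and DNA maintenance, 13 were called higher and 0 lower in high Myc against no Myc (median 1.37), including the helicase TWNK (2.24), the packaging factor TFAM (2.14) and the RNA-binding protein SLIRP (2.08). Of 10 other RNA polymerase I and ribosomal DNA factors, 6 rose (median 1.11), led by the helicase DDX21 (2.52), the nucleolar chaperone NOLC1 (1.92) and MYBBP1A (1.72). Of 16 polymerase III factors and regulators, 10 rose (median 0.45), led by the transcript-binding protein SSB (2.42), GTF3A (1.52) and SNAPC1 (1.10). Among 28 measured general factors of polymerase II, 6 rose and 2 fell (median 0.30), TAF5 (1.83), CCNH (1.35) and GTF2F2 (0.97) rising most. Of 18 pausing and elongation factors, 4 rose and 0 fell (median 0.12), among them LEO1 (1.02), NELFCD (0.87) and SUPT4H1 (0.53). Of 15 assembly and import factors, 6 rose (median 0.43), led by the ATPases RUVBL1 (2.24) and RUVBL2 (1.94) and the prefoldin PFDN2 (1.52). The background for these counts is 14.2% of all genes called higher and 9.0% lower.

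In low Myc against no Myc the same lists had 9 of 15, 6 of 10, 4 of 16, 6 of 28, 2 of 18 and 6 of 15 called higher. The share of all genes was 11.3%. In high Myc against low Myc the counts were 3, 0, 0, 1, 1 and 0, and the share of all genes was 2.33%. Called lower were 1 polymerase I factor and 1 general factor of polymerase II in low Myc against no Myc, and 0 genes of these lists in high Myc against low Myc. Of all genes, 8.55% and 1.27% were called lower in that order of comparisons. These comparisons share the no Myc or the high or low Myc arrays, so they are not independent.

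**Figure D4:**
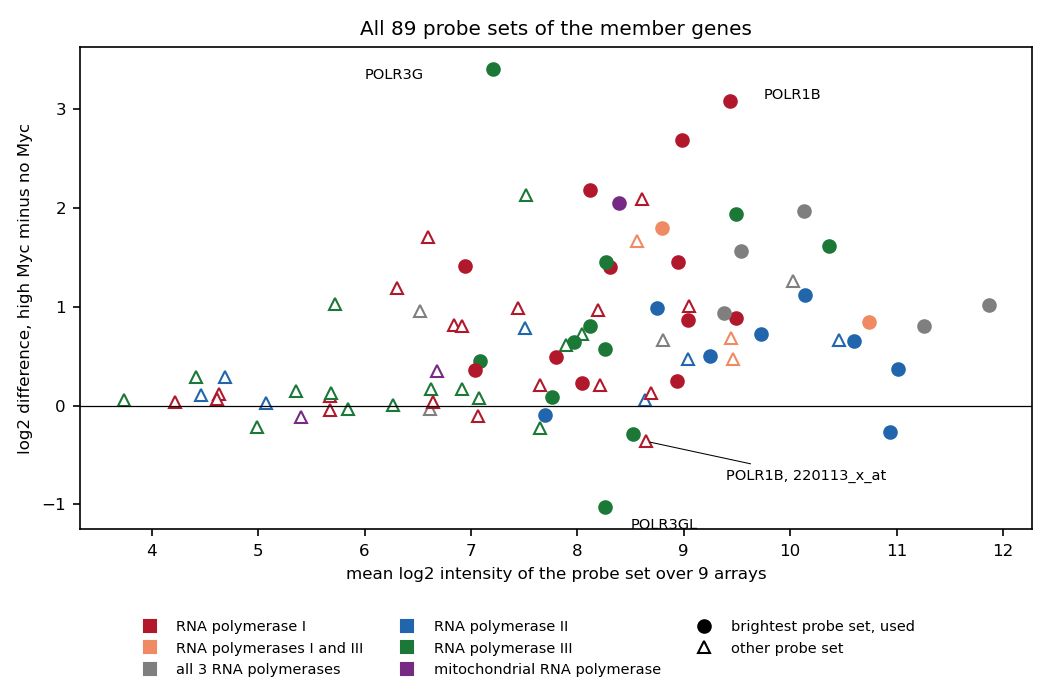
Log2 difference in high Myc minus no Myc against the mean log2 intensity for all 89 probe sets of the 39 members, with the brightest probe set of each gene as a circle and the others as triangles. Of the 41 other probe sets of called genes, 15 were called the same way and 0 the opposite way.

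Genes with several probe sets gave partly different answers. Of the 41 other probe sets of the called members, 15 were called the same way in high Myc against no Myc, 0 the opposite way and 26 not at all, and the 15 were all among the 27 with a mean log2 of at least 6. Of the 4 probe sets of POLR1B, those besides the brightest differed by 2.08 and 0.81, both called, and by -0.36 (adjusted p = 0.0553). That last probe set was called lower in low Myc against no Myc, at -0.56 (adjusted p = 0.0130). In that comparison the called members had 27 other probe sets, of which 9 were called the same way, 1 the opposite way and 17 not at all.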

How the data were processed

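Total RNA of P493-6 cells was labelled with biotin and read on 9 Affymetrix arrays of 54675 probe sets, per the labels. The submitters' processing notes name RMA, of a version not given in the sources used here, as the method that made 1 value for each probe set. This method brings the array distributions close together, so a change in the RNA content per cell is not visible. Array medians still ran from 75.3 to 80.3, and repeated quantile normalization changed some calls. The values deposited are linear intensity, and their log2 was taken here. Detection calls were not used, and precision is limited by the number of arrays.

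Names came from the platform annotation, keeping the 41097 probe sets with 1 gene symbol, of which 41043 were updated through the Entrez identifier. A gene took its probe set with the highest mean log2 value, giving 19775 genes. Another 12 probe sets carried several symbols that include members and were left out, as were 7 of 2 pseudogenes. The 3 groups were fitted in 1 limma 3.58.1 model in R 4.3.3 (lmFit, eBayes without trend, 6 residual degrees of freedom), two-sided, adjusted by Benjamini-Hochberg within each comparison, and called at an adjusted p under 0.05. The code was tested on simulated data. Motifs were searched in RefSeq promoters. Members and lists were chosen with earlier results of these data known. Values on every array are given for members called and at least 2-fold different in high Myc against no Myc or low Myc, for the POLR3G and POLR3GL pair and for the largest subunits. POLR1D and POLR2G, and the promoters shown, were added after values had been seen. Up to 3 called genes are named per related list. Of the alternatives, 10 changed a setting and 9 left out an array.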

Additional observations from a re-analysis of the deposited data

Results flagged for a closer look

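In 2 of 39 groups of 4 high Myc arrays, 1 array stood apart by Dixon's test at the 95% level, where chance gives about 1 in 20. POLR2G, a stalk subunit of RNA polymerase II, read 1925.0 on high Myc replicate 2, against 1673, 1641 and 1684 on the other high Myc arrays. TAF1B, a subunit of the polymerase I factor SL1, read 177.4 on high Myc replicate 3, against 138.4, 137.6 and 132.5 on the others. Neither gene was called between high Myc and no Myc.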

How the results depend on the processing

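Of 1083 differences of 19 named members in 19 settings, 1015 kept their direction and side of the threshold. These 19 are the members called and at least 2-fold different, with POLR2A and POLR3A added as largest subunits. Members with smaller differences are not among the 19, such as RRN3, BRF2, POLR1D and POLR1H. Calls that such members lost are therefore not in the counts of lost calls that follow. With an array left out, 23 calls were lost and 7 gained, and under the other settings 27 were lost and 7 gained, 3 of the lost ones with their direction turned. In high Myc against no Myc, 1 member in place of 2 was called lower with arrays centred on their median, without dim genes, with the median of probe sets, with a trended and robust prior, with only the groups compared, with the replicate block and at an adjusted p under 0.01. In low Myc against no Myc, 0 were called lower with only the groups compared. With the median of probe sets, 22 members in place of 28 were called higher in high Myc against no Myc. In low Myc against no Myc they were 14 in place of 17. With probe sets without suffix these counts were 24 and 13. Over all genes these settings called 2514 and 2484 higher in place of 2805, and 1938 and 1922 in place of 2228. Counts also rose, to 29 with only the groups compared and, in low Myc, to 21 after repeated quantile normalization. In high Myc against low Myc, 2 were called higher with only the groups compared and 0 with the replicate block or the stricter threshold, and 1 was called lower after repeated quantile normalization. Same-numbered arrays of high and low Myc correlated at 0.25, 0.03 and -0.31 in their deviations from the group means, and 1 of 3 arrays of either group correlated best with its own number. The values were 0.45 and 0.07 for high and no Myc and 0.47 and 0.10 for low and no Myc, where 2 no Myc arrays deviate by equal and opposite amounts. Not every pair was over 0.1, so the numbers are not taken as pairs.

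With an array left out, the members called higher ran from 22 to 29 in high Myc against no Myc, 11 to 25 in low Myc against no Myc and 0 to 9 in high Myc against low Myc. Those called lower ran from 1 to 2, 0 to 1 and 0 to 1. Over all genes the counts called higher moved too. In high Myc against no Myc they were 2401 without high Myc replicate 3 and 3022 without low Myc replicate 3. In low Myc against no Myc they were 1563 without low Myc replicate 1 and 2840 without low Myc replicate 3. In high Myc against low Myc they were 168 and 616 without high Myc replicates 4 and 2. The 22 and 11 came from fits with a single no Myc array, where fewer of all genes were called too.

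The directions that turned were all of values not called in that setting. In high Myc against low Myc, POLR1F ran from -0.0664 without low Myc replicate 3 to 0.299 without low Myc replicate 2, POLR2A was -0.0233 after repeated quantile normalization and -0.0272 with the median of probe sets, and POLR3B was -0.0393 with the median of probe sets. POLRMT was -0.11 in both comparisons with no Myc and -0.00356 in high Myc against low Myc with the probe set without suffix. For each of these the cause was not tested.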
